A study of Mus musculus with 4 samples.

Results

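The nuclear genes of the mitochondrial respiratory chain and ATP synthase were compared among 4 populations of mouse CD4+ CD8- thymocytes. Members were all genes whose platform annotation gave 1 symbol beginning with Nduf, Uqcr, Atp5 or Cox4 to Cox8, together with Sdha, Sdhb, Sdhc, Sdhd, Cyc1 and Cycs. This rule found 92 of the 18193 genes on the array and used no measured difference. They comprised 34 genes of complex I, 4 of complex II, 9 of complex III, cytochrome c (Cycs), 17 of complex IV, 17 of complex V and 10 assembly or other factors. Each gene was read from 1 probe set, the one with the highest mean over the 4 arrays.

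RNA was taken from cells sorted first on magnetic beads and then by flow cytometry from female mice 6 to 8 weeks old, and was hybridised to Affymetrix mouse 430 2.0 arrays after 2 rounds of amplification. Of the populations, 3 came from Foxp3(gfp/gfp) mice, in which both copies of Foxp3 encode a GFP-Foxp3 fusion protein, on a 129/Sv background crossed 4 to 6 times to C57BL/6. Foxp3 is the transcription factor that marks regulatory T cells. GFP- CD25- cells carry neither marker, GFP- CD25+ cells carry the IL-2 receptor alpha chain without Foxp3 protein, and GFP+ cells of these mice are called Foxp3-fusion here. The other GFP+ population came from Foxp3(gfpko/wt) mice, which were crossed 2 times to C57BL/6 and carry 1 reporter allele known to make no functional Foxp3, and is called Foxp3-null here. The free-text description of this sample is the one given for the fusion mice, and only the title and the strain entry set it apart, which bears on every Foxp3-null value. Its GFP+ cells matured beside cells that used the wild-type copy of this X-linked gene, and its genotype and its backcross generation cannot be told apart. All the fusion populations lacked a native Foxp3 allele, so no unmodified control was compared. The number of animals behind each array was not given in the labels.

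Complexes I and II pass electrons from NADH and succinate to coenzyme Q, complex III passes them on to cytochrome c, and complex IV gives them to oxygen. Complexes I, III and IV pump protons out of the matrix, and complex V, the ATP synthase, lets them flow back to make ATP. T cells raise the activity of this chain when they leave rest, and regulatory T cells are known for their reliance on it.

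Each population had 1 array, so no error, test or p-value could be had for any value below, and every difference describes 2 arrays. Values are log2 signals after quantile normalization, which gives the 4 arrays the same distribution of signals; the deposited log2 values, which differed at high signal, are given beside them where the scale matters. A floor of 4.91 was set from genes of tissues other than thymus, and a lower signal was counted as the floor. Foxp3 read 2.76 (GFP- CD25-), 2.88 (GFP- CD25+), 7.27 (Foxp3-null) and 8.82 (Foxp3-fusion), so the GFP sort and the arrays went together; a signal in the null cells reads transcript and not protein. All 7 CD4 T cell markers on the array were above the floor on every array, and Cd8a was below it on all 4. Of the other cell types, B cells had 0 or 1 of 6 markers above the floor, CD8 T cells 0 or 1 of 4, thymic epithelium 1 of 7 (Epcam), and gamma delta T cells (0 of 1) and erythroid cells (0 of 4) none. Dendritic cell and macrophage markers above the floor numbered 1, 1, 4 and 2 of 12 in the order GFP- CD25-, GFP- CD25+, Foxp3-null and Foxp3-fusion, with summed levels (log2 of the summed signals) of 7.14, 7.68, 8.49 and 7.44. NK and NKT cell markers numbered 3, 0, 2 and 1 of 6 in the same order, with summed levels of 7.86, 6.08, 7.34 and 6.68. The part of these cells in the differences below was not tested.

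Most of the respiratory chain was readable in these thymocytes. Of the 92 members, 70 were above the floor on all 4 arrays, 6 on some and 16 on none. The share above the floor on all 4 arrays was 76.1% of members and 32.8% of all genes. Complex I had 32 of 34 members above the floor on all arrays, complex II 3 of 4, complex III 7 of 9, complex IV 8 of 17, complex V 15 of 17 and the assembly and other factors 4 of 10. Cycs was above it throughout.

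Complex IV holds the paralogs that differ between tissues, and these divided by detection. The widely expressed subunits Cox4i1, Cox6a1, Cox6b1 and Cox7a2 were above the floor on all arrays. Their counterparts known from lung, muscle, heart or testis (Cox4i2, Cox6a2, Cox6b2, Cox7a1 and Cox7b2) were below it on all 4, as were Cox8b and Cox8c. Cox8a, which is widely expressed, was also below the floor, at 2.11 to 2.15, and so were the complex V subunit Atp5l and the complex I subunits Ndufb1 and Ndufb4. A probe set below the floor gives only an upper bound for its gene, and Cox7b was not analysed here. The remaining undetected members were Ndufaf3, Ndufaf5, Ndufaf6 and Ndufaf7, which help to build complex I, and Ndufa4l2, a paralog of Ndufa4. Subunits encoded in mitochondrial DNA were not analysed here: 0 of the 13 were named on the array.

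Both GFP+ populations carried higher respiratory chain signal than GFP- CD25- cells, by a small median and with a few large differences. In Foxp3-fusion cells the median difference over 75 measured members was 0.16 (log2), against -0.04 over all genes, and in Foxp3-null cells it was 0.56 over 74 members, against 0.22. The choice of scale moved the median of all genes by over 0.1 (log2). On the deposited scale the members' medians were 0.40 for Foxp3-fusion and 0.24 for Foxp3-null cells, against 0.18 and -0.02 over all genes. Relative to all genes the members were higher by 0.20 in Foxp3-fusion and 0.34 in Foxp3-null cells after normalization and by 0.22 and 0.26 as deposited.

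Large differences from GFP- CD25- cells were all in the direction of higher signal after normalization. In Foxp3-fusion cells 11 of 75 members passed 2-fold upward and 0 downward, against 10.5% and 5.81% of all measured genes. In Foxp3-null cells 9 of 74 passed it upward and 0 downward, against 10.6% and 7.66%. The share of higher members was near the background in both. In bulk RNA, more cells of a type and more RNA per cell cannot be told apart. As deposited, 16 of 76 members were 2-fold higher in Foxp3-fusion cells and 0 lower (background 15.6% and 3.81%), and 5 were higher in Foxp3-null cells and 0 lower (background 5.05% and 12.5%). The comparisons share the GFP- CD25- array, so a peculiarity of that array would enter both.

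**Figure D1:**
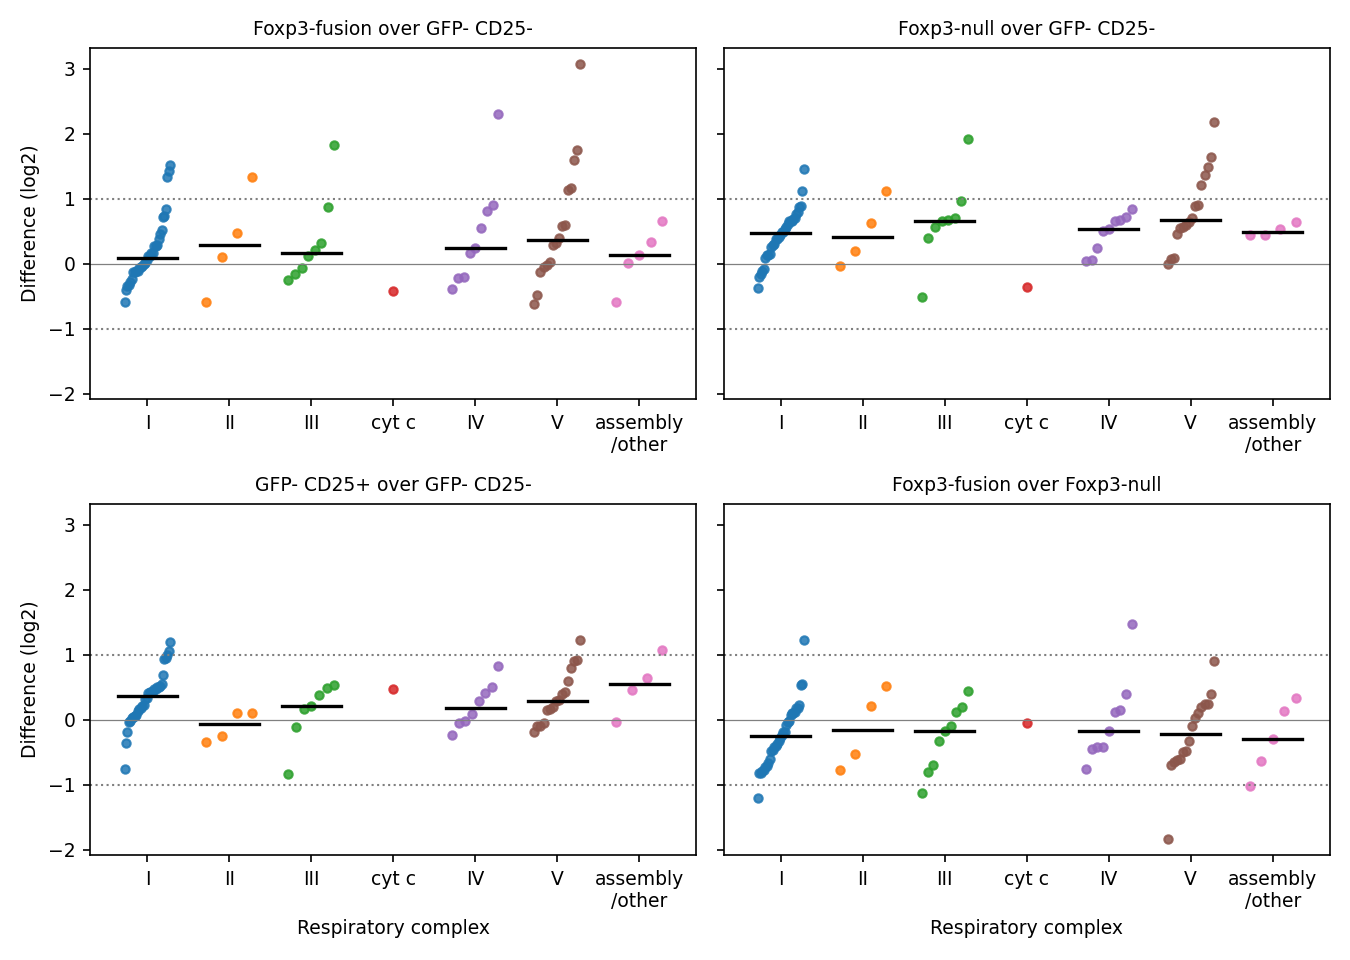
Difference in normalized log2 signal between pairs of populations for each measured member, by respiratory complex; points are genes, black bars are medians and dotted lines mark 2-fold. Complex V has the highest point in both upper panels (3.08 and 2.18), and the medians lie above 0 for complexes I to V in both.

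The medians of complexes I to V lay closer together than the single members. In Foxp3-fusion over GFP- CD25- cells the medians were 0.08 for complex I, 0.28 for complex II, 0.17 for complex III, 0.23 for complex IV and 0.36 for complex V. In Foxp3-null over GFP- CD25- cells they were 0.46, 0.40, 0.66, 0.53 and 0.67 in the same order. Complex V was highest in both, but as deposited complex III was above it in Foxp3-null cells (0.35 against 0.31). Single members ranged far more widely than the complexes, from -0.63 to 3.08 within complex V and from -0.59 to 1.52 within complex I in Foxp3-fusion cells.

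In complexes II, III and V, 5 members were at least 2-fold higher in both GFP+ populations than in both GFP- populations. They were Atp5b, Atp5c1, Atp5g2, Sdha and Uqcrh. These 5 are 7.14% of the 70 members above the floor on all arrays, and the pattern held for 1.49% of all such genes. As deposited there were also 5, with Ndufa7 in place of Sdha, against 1.35%. The wider pattern, both GFP+ arrays above both GFP- arrays by any amount, held for 27 of 70 members against 22.8% of all genes, and as deposited for 29 of 70 against 21.1%. The opposite pattern held for 6 of 70 members (Cycs, Ndufa12, Ndufa5, Ndufb11, Ndufb5 and Uqcrc2) against 16.0%, and as deposited for 5 (Atp5pb, Cycs, Ndufa12, Ndufa5 and Ndufc2) against 14.5%. The gap between the 3' and 5' control probe sets of actin, a measure of how far transcripts were copied, was 8.37, 9.29, 7.10 and 5.02 (log2) in GFP- CD25-, GFP- CD25+, Foxp3-null and Foxp3-fusion cells, and that of Gapdh was 6.56, 6.51, 4.93 and 4.60. Both gaps were smaller on the GFP+ arrays, and their part in the pattern was not tested.

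The 150 bases upstream of the start site are shown for these 5 members, which were selected by the pattern above on their brightest probe sets. Sequences are from RefSeq on GRCm38.p6, 5' to 3' on the gene's strand, and for Atp5c1 the start farthest upstream of 2 was taken. Capitals mark letters of the motifs described further on: GCATGCGC, CCGGAAG and GGGCGG, on either strand.
Atp5b (chr10:128083157-128083306, plus strand): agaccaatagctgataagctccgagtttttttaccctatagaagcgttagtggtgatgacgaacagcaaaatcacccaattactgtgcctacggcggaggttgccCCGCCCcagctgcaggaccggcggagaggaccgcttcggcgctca
Atp5c1 (chr2:10080511-10080660, minus strand): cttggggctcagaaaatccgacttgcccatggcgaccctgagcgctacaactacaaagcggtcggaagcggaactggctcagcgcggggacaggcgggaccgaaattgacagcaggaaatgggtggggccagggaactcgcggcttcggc
Atp5g2 (chr15:102671048-102671197, minus strand): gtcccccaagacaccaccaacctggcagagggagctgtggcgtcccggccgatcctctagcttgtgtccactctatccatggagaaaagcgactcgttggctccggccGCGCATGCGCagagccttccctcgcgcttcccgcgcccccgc
Sdha (chr13:74350241-74350390, minus strand): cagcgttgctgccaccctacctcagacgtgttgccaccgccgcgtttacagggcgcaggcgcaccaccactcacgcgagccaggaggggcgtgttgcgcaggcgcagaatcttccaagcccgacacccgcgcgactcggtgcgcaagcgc
Uqcrh (chr4:116075071-116075220, minus strand): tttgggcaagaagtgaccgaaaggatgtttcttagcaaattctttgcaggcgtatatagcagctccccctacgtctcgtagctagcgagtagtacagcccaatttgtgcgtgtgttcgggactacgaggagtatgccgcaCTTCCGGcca
Atp5g2 holds the letters GCATGCGC on both strands, starting 40 and 42 bases before the start site and overlapping. Uqcrh holds CCGGAAG on the opposite strand 10 bases before the start, and Atp5b holds GGGCGG on the opposite strand 45 bases before it. No capital stands in the windows of Atp5c1 and Sdha, so the 5 windows shared none of these exact letters. Near matches were not searched for.

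Complex V gave the largest differences. Atp5b, the catalytic beta subunit, read 6.94 (GFP- CD25-), 7.09 (GFP- CD25+), 9.12 (Foxp3-null) and 10.01 (Foxp3-fusion). Both GFP+ arrays lay above both GFP- arrays, with the signal 8.43-fold higher in Foxp3-fusion and 4.54-fold higher in Foxp3-null than in GFP- CD25- cells. On the deposited scale these log2 differences were 3.29 and 1.81. Atp5b has 1 probe set on the array, so no other reading of it was available.

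Atp5c1, the gamma subunit that turns inside the catalytic head, read 9.33, 9.28, 10.98 and 11.08 in the same order of populations. The difference from GFP- CD25- cells was 3.36-fold in Foxp3-fusion and 3.13-fold in Foxp3-null cells. Its other probe set read 7.07, 5.30, 7.18 and 7.70 and put the Foxp3-null and GFP- CD25- arrays only 0.11 apart, so the pattern for this gene rests on the brighter probe set. Atp5g2, one of 3 genes for the c subunit of the rotor ring, read 7.19, 7.09, 8.68 and 8.35, a 2.24-fold difference in Foxp3-fusion and 2.81-fold in Foxp3-null cells. Atp5g1, which encodes the same mature c subunit, was below the floor at 4.20 in GFP- CD25- cells and read 5.06, 5.81 and 6.04 in the others, so its increase to Foxp3-fusion cells was 2.20-fold or more. The third c subunit gene, Atp5g3, read 10.70, 11.12, 11.25 and 11.27, within 1.49-fold.

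Atp5e, the epsilon subunit of the central stalk, read 5.46, 6.69, 6.66 and 7.05, and was low in GFP- CD25- cells alone. It was 2.35-fold higher in GFP- CD25+ cells, 2.30-fold higher in Foxp3-null cells and 3.02-fold higher in Foxp3-fusion cells. Atp5d, the delta subunit of that stalk, had another order, with 9.04, 9.96, 9.93 and 9.44. Of the peripheral stalk, which holds the head still, 4 members were measured (Atp5pb, Atp5h, Atp5o and Atp5j), with median differences from GFP- CD25- cells of -0.10 in Foxp3-fusion and 0.58 in Foxp3-null cells. These rest on the brightest probe sets: on the next one the differences were 1.52 and 2.08 for Atp5h, 0.67 and 1.09 for Atp5pb (-0.63 and 0.00 on the brightest) and 0.66 and 1.31 for Atp5o. Atp5md, a small membrane subunit, was high in Foxp3-null and low in Foxp3-fusion cells, with 9.10, 9.69, 10.46 and 8.61. The narrowest ranges in complex V were those of Atp5j2 (9.92 to 10.20) and Atp5a1, the catalytic alpha subunit (10.75, 10.65, 10.83 and 11.07).

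**Figure D2:**
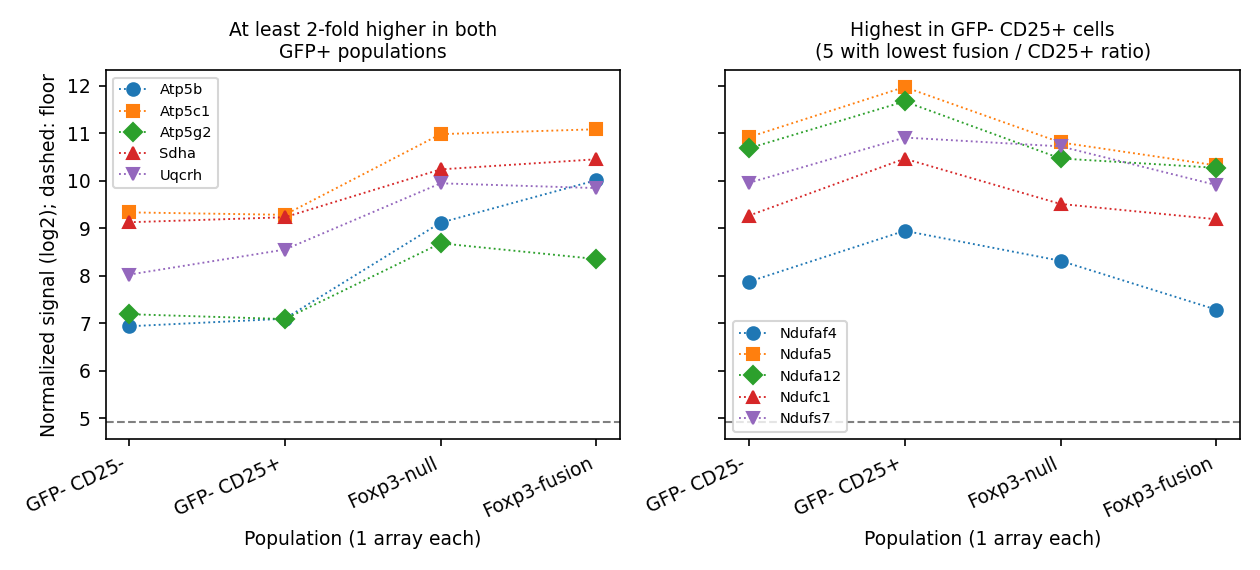
Normalized log2 signal of 10 members in the 4 populations, 1 array each; left, members at least 2-fold higher in both GFP+ populations, right, 5 members highest in GFP- CD25+ cells; dotted lines only join the points of a gene. Atp5b ranges from 6.94 in GFP- CD25- to 10.01 in Foxp3-fusion cells on the left, whereas Ndufa5 peaks at 11.97 in GFP- CD25+ cells on the right.

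In complex II, Sdha, the flavoprotein that oxidises succinate, read 9.12, 9.23, 10.24 and 10.45. Both GFP+ arrays were above both GFP- arrays, by 2.51-fold in Foxp3-fusion and 2.16-fold in Foxp3-null over GFP- CD25- cells. On the deposited scale the Foxp3-null difference was 0.75, under 2-fold, and the median over its 4 probe sets gave -0.055. The next probe set of Sdha read 8.34, 8.02, 8.88 and 8.93. It placed both GFP+ arrays above both GFP- arrays, but under 2-fold from GFP- CD25- cells (0.59 in Foxp3-fusion and 0.54 in Foxp3-null cells). Sdhb, the iron-sulfur subunit, read 8.42, 8.07, 9.04 and 8.52, highest in Foxp3-null cells. The membrane anchors parted: Sdhc read 5.16, below the floor at 4.39, 5.12 and 5.63, and Sdhd read 8.04, 8.15, 8.23 and 7.46, so the Foxp3-fusion array was the highest for the one and the lowest for the other.

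Complex III had its largest difference in Uqcrh, the hinge protein that touches cytochrome c1, which read 8.02, 8.55, 9.94 and 9.84. It was 3.54-fold higher in Foxp3-fusion and 3.79-fold higher in Foxp3-null than in GFP- CD25- cells. The other probe set of Uqcrh gave 7.08, 7.87, 9.26 and 8.76, so both readings placed the GFP+ arrays above the GFP- arrays. The core protein Uqcrc1 was high in Foxp3-null cells alone (7.04, 6.20, 8.01 and 6.88), and the core protein Uqcrc2 was low there on its brightest probe set (13.06, 13.21, 12.55 and 13.00). The next probe set of Uqcrc2 gave 8.49, 8.39, 9.26 and 9.55, with both GFP+ arrays above both GFP- arrays. Cyc1, the cytochrome c1 heme protein, read 8.99, 9.20, 9.64 and 9.31, and Uqcrfs1, the Rieske iron-sulfur protein, read 5.78, 5.67, 6.17 and 5.99, both within 1.57-fold of GFP- CD25- cells. Uqcr10 and Uqcrq, small accessory subunits, were above the floor on 1 array each, at 5.60 in Foxp3-null and 5.03 in Foxp3-fusion cells.

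Cytochrome c was lower on both GFP+ arrays on its brightest probe set, as Uqcrc2 of complex III was after normalization. Cycs, which carries electrons from complex III to complex IV and triggers apoptosis when released, read 11.27, 11.74, 10.91 and 10.85. The GFP- CD25+ array was highest, and both GFP+ arrays lay below both GFP- arrays on each scale. The Foxp3-fusion signal was 1.86-fold lower than that of GFP- CD25+ cells. The second of its probe sets gave 9.13, 9.40, 9.34 and 8.75, with the GFP- CD25+ array again highest but Foxp3-null above GFP- CD25- cells.

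Complex IV was led by Ndufa4, a subunit first assigned to complex I and now counted with cytochrome c oxidase. It read 5.18, 4.95, 6.02 and 7.48, so the Foxp3-fusion array stood above the rest, 4.92-fold higher than GFP- CD25- and 2.76-fold higher than Foxp3-null cells. Cox5a, which with Cox4i1 joins the catalytic core early in assembly, read 10.92, 11.32, 11.42 and 11.82, and Cox4i1 read 9.30, 9.29, 9.97 and 10.11. Both were highest in Foxp3-fusion cells, by 1.86-fold and 1.76-fold over GFP- CD25- cells. Cox6a1 had one of the narrowest ranges of the complex, with 11.90, 11.84, 11.94 and 11.52.

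Complex I, the largest, divided within itself. Ndufa8, Ndufa9 and Ndufa6, accessory subunits, were the 3 members to exceed GFP- CD25- cells by 2-fold in the Foxp3-fusion population. Ndufa8 read 5.18, 4.98, 5.48 and 6.70, and Ndufa9, which braces the junction between the arms of the complex, read 6.36, 5.60, 7.24 and 7.77. Ndufa6 read 6.73, 7.23, 7.86 and 8.07. Foxp3-fusion cells were highest for all 3. In Foxp3-null cells the 2-fold members were Ndufa6 and Ndufa7, the latter at 6.56, 6.19, 8.02 and 7.30. As deposited the Foxp3-null difference from GFP- CD25- cells was 0.76 (log2) for Ndufa6, under 2-fold, and 1.10 for Ndufa7. The next probe set of Ndufa7 put this difference at 0.73 after normalization, instead of 1.46. The 6 core subunits measured, all of the matrix arm, which takes electrons from NADH (Ndufs1, Ndufs3, Ndufs7, Ndufs8, Ndufv1 and Ndufv2), stayed between -0.34 and 0.83 in Foxp3-fusion over GFP- CD25- cells. Ndufa1 (11.14, 11.10, 11.23 and 11.40) and Ndufa13 (10.65, 10.88, 10.80 and 10.71) were among the most level members.

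On the brightest probe sets, CD25+ cells without Foxp3 protein had higher respiratory chain signal than CD25- cells. Complex I had the highest median of the complexes. The median difference over 72 members was 0.29, against 0.11 over all genes, and as deposited it was 0.13 against -0.04. For 37 members 2 probe sets were above the floor on all arrays. Their median was 0.40 on the brightest and 0.23 on the next, against 0.08 and 0.10 over all such genes. As deposited it was 0.24 and 0.01, against -0.10 and -0.08. Signs were then opposite in 16 of the 37 members and in 774 of 2064 genes. After normalization 4 members (Atp5e, Ndufa5, Ndufaf4 and Ndufc1) were at least 2-fold higher and 0 lower, against 4.27% and 4.63% of all genes. As deposited the counts were 2 and 1, against 2.74% and 7.67%. Complex medians were 0.36 for complex I, -0.07 for complex II, 0.21 for complex III, 0.18 for complex IV and 0.29 for complex V. In complex I, 27 of 32 members were above 0, against 61.1% of all genes. These complex medians and this count were taken after normalization. As deposited, Ndufa3, Ndufa10, Ndufb3, Ndufs1, Ndufs3 and Ndufs5 of complex I turned from above 0 to below it.

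GFP- CD25+ was the highest of the 4 arrays for 22 of 70 members, against 21.7% of all genes, and for 15 of 70 against 15.4% as deposited. Complex I supplied 13 of the 22 and 32 of the 70, and as deposited 8 of the 15. Of the 22, Ndufaf4, Ndufa5, Ndufa12, Ndufc1 and Ndufs7 had the lowest Foxp3-fusion to GFP- CD25+ ratios. Ndufaf4, a complex I assembly factor, read 7.87, 8.94, 8.31 and 7.28, which was 2.10-fold higher in GFP- CD25+ than in GFP- CD25- cells and 3.16-fold higher than in Foxp3-fusion cells. Ndufa5, an accessory subunit of the matrix arm, read 10.92, 11.97, 10.81 and 10.32. Ndufa12, another, read 10.68, 11.67, 10.47 and 10.27. GFP- CD25+ stood above the other 3 arrays in each, by 3.14-fold over Foxp3-fusion cells for Ndufa5 and 2.63-fold for Ndufa12. Ndufc1, a membrane-arm subunit, read 9.26, 10.46, 9.51 and 9.19, and Ndufs7, which carries the last iron-sulfur cluster before coenzyme Q, read 9.95, 10.91, 10.72 and 9.91. The next probe set of Ndufa12 gave the same order (10.68, 11.49, 10.31 and 10.09), whereas that of Ndufaf4 was lowest in GFP- CD25+ cells (6.20, 5.61, 6.11 and 6.39). That of Ndufa5 read 5.41, 5.76, 5.83 and 5.46, highest in Foxp3-null cells, and put Foxp3-fusion over GFP- CD25+ at -0.30 (log2) instead of -1.65.

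The same upstream stretch is shown for the 3 members with the lowest ratios, for comparison with the GFP+ group; capitals mark the same motifs, and for Ndufa5 the start farthest upstream of 2 was taken.
Ndufaf4 (chr4:24897933-24898082, plus strand): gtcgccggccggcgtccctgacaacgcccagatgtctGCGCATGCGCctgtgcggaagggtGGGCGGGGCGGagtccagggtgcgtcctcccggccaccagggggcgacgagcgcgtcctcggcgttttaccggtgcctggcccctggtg
Ndufa5 (chr6:24527691-24527840, minus strand): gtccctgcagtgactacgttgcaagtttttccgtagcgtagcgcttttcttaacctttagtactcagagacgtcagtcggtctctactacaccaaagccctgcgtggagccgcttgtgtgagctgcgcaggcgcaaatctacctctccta
Ndufa12 (chr10:94198885-94199034, plus strand): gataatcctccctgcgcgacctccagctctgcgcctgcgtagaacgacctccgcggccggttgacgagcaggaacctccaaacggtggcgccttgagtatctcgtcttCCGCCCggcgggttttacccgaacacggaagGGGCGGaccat
Ndufaf4 holds GCATGCGC on both strands, overlapping, 111 and 113 bases before the start, as Atp5g2 does nearer to it, although the signals of these genes took different orders over the arrays. Ndufaf4 also holds GGGCGG at 89 and 84 bases, and Ndufa12 holds it at 11 bases and, on the opposite strand, at 42. The window of Ndufa5 held no exact match.

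Several of these motifs are known from respiratory chain promoters. RefSeq windows of 300 bases, 250 before to 50 after a start, were searched on both strands for 80 promoters of 75 of the 92 members and for all 32851 promoters in the table. GCATGCGC, the core bound by NRF1, was in 15% of member promoters and 2.71% of all. CCGGAAG, the ETS site used by GABPA, was in 23.8% against 8.86%, AAGATGGC, bound by YY1, in 12.5% against 2.75%, and TCAAGGTC, a site of ESRRA, in 5% against 1.05%. GGGCGG, the GC box, was in 46.3% against 35.7%, and TATAAA in 11.3% against 13.6%. Among the members highest in GFP- CD25+ cells GCATGCGC was in 3 of 21 promoters, and among those 2-fold higher in both GFP+ populations in 1 of 6. These matches describe letters only.

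Foxp3-fusion and Foxp3-null cells differed in a direction that depended on the scale. The median over 76 members was -0.22 for Foxp3-fusion over Foxp3-null cells after normalization and 0.31 as deposited, and all genes moved likewise, from -0.16 to 0.33. Relative to all genes the members were within 0.06 on either scale (-0.06 and -0.02). After normalization 2 members passed 2-fold upward and 4 downward, against 9.10% and 8.52% of all genes; as deposited 6 of 77 were higher and 1 lower, against 21.0% and 2.74%. Ndufa4 (2.76-fold) and Ndufa8 (2.33-fold) were the higher members, and Atp5md (3.59-fold), Ndufs4 (2.30-fold), Uqcrc1 (2.19-fold) and Ndufaf4 (2.04-fold) the lower ones. Ndufs4, an accessory subunit needed to complete the electron-input arm, read 6.00, 6.32, 6.87 and 5.67. Of the 6, Ndufa4, Ndufa8 and Atp5md were beyond 2-fold in the same direction on the deposited scale, with log2 differences of 2.05, 1.70 and -1.18. Since the backcross differed between these mice, genotype and background cannot be told apart in them.

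**Figure D3:**
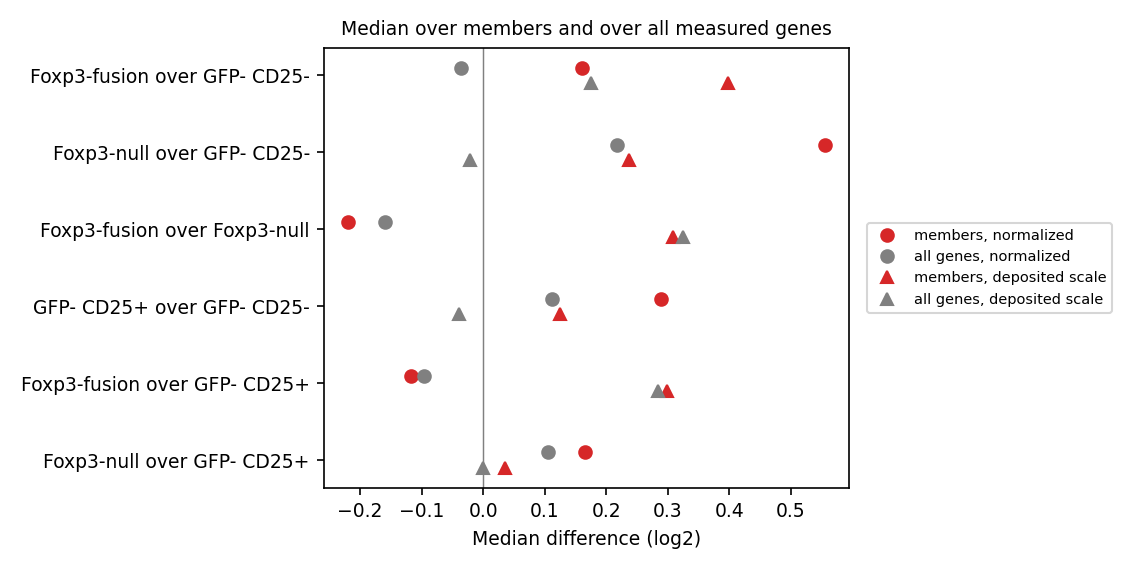
Median log2 difference over the members (red) and over all measured genes (grey) for each pair of populations, after normalization (circles) and as deposited (triangles). The Foxp3-fusion over Foxp3-null members' median moves from -0.22 to 0.31 with the scale, and the grey points move with it.

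Against GFP- CD25+ cells the GFP+ populations differed in both directions. In Foxp3-fusion cells the median over 75 members was -0.12, against -0.10 over all genes, and as deposited 0.30 against 0.28. After normalization 9 members were 2-fold higher and 6 lower, against 11.7% and 8.36%; as deposited 18 of 76 were higher and 3 lower, against 22.6% and 3.07%. In Foxp3-null cells the median over 74 members was 0.17, against 0.11, and as deposited 0.04 against 0.00. There 9 members were higher and 2 lower, against 8.76% and 7.51%, and as deposited 7 and 4, against 6.42% and 8.66%. Complexes II, III and IV had positive medians in both GFP+ populations on both scales. After normalization that of complex II was 0.58 in Foxp3-fusion and 0.59 in Foxp3-null cells, over its 4 members. As deposited it was 1.01 and 0.53. Of the 4, Sdhc gives bounds only, since its GFP- CD25+ signal was under the floor. Sdhd was lower in Foxp3-fusion cells (-0.69 after normalization). Complex I was -0.19 in Foxp3-fusion cells after normalization and 0.21 as deposited. Atp5b was again the most different member in Foxp3-fusion cells, 7.55-fold higher, followed by Ndufa4 at 5.78-fold and Ndufa9 at 4.51-fold. The GFP- CD25+ signal of Ndufa4 was 4.95, close to the floor of 4.91. In Foxp3-null cells Atp5b (4.06-fold), Ndufa7 (3.56-fold) and Uqcrc1 (3.51-fold) led on their brightest probe sets. The next probe set of Ndufa7 read 6.44, 6.67, 7.17 and 6.24, a log2 difference from GFP- CD25+ of 0.50 in Foxp3-null cells instead of 1.83, and of -0.43 in Foxp3-fusion cells instead of 1.11; the median over its 5 probe sets gave 1.34 and -0.074. The 6 lower members in Foxp3-fusion cells were Ndufaf4, Ndufa5, Ndufa12, Ndufc1, Ndufs7 and Atp5md. The 2 in Foxp3-null cells were Ndufa12 (2.30-fold) and Ndufa5 (2.24-fold). These too were read on the brightest probe sets. On the next one the Foxp3-fusion difference was 0.78 (log2) for Ndufaf4, -0.30 for Ndufa5 and -1.40 for Ndufa12. The Foxp3-null difference was then 0.08 for Ndufa5 and -1.18 for Ndufa12.

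The reading of a gene depended on its probe set. Of the 92 members 40 had 1 probe set and 52 several, up to 6, and 37 had at least 2 above the floor on all 4 arrays. In Foxp3-fusion over GFP- CD25- cells the median over these 37 was -0.01 on the brightest probe set and 0.57 on the next. Over the 2023 genes with such a pair these medians were -0.12 and -0.03. Signs were opposite in 10 of the 37 members and in 746 of the 2023 genes. The median gene-by-gene change from the brightest to the next was 0.15 over the members and 0.14 over all such genes. At least 2-fold higher were 3 members on the brightest and 10 on the next, against 6.97% and 11.2% of the 2023 genes with such a pair. In Foxp3-null cells the medians were 0.53 and 0.58, with 4 and 9 members 2-fold higher, against 7.51% and 9.39%.

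Cox6b1, the subunit at the interface of the cytochrome c oxidase dimer, shows this plainly. Its brightest probe set read 11.83, 11.91, 12.36 and 11.60, highest in Foxp3-null and lowest in Foxp3-fusion cells. Its next probe set read 8.37, 8.44, 9.83 and 9.45, with both GFP+ arrays at least 2-fold above both GFP- arrays. Atp5h, the d subunit of the peripheral stalk, read 12.31, 12.51, 12.88 and 12.18 on one and 6.76, 6.91, 8.84 and 8.29 on the other, and Ndufb6 of complex I read 10.57, 10.74, 10.18 and 10.73 and then 6.24, 5.55, 7.24 and 7.93. In each the dimmer probe set alone separated the GFP+ from the GFP- arrays in this direction. The 9 members that were 2-fold higher in Foxp3-fusion cells on the next probe set alone were Atp5a1, Atp5h, Cox6b1, Cox6c, Cox7a2l, Ndufb6, Ndufb7, Ndufb9 and Uqcrc2. The control gaps between 3' and 5' ends given above were smaller on the GFP+ arrays, and their part in this disagreement was not tested.

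**Figure D4:**
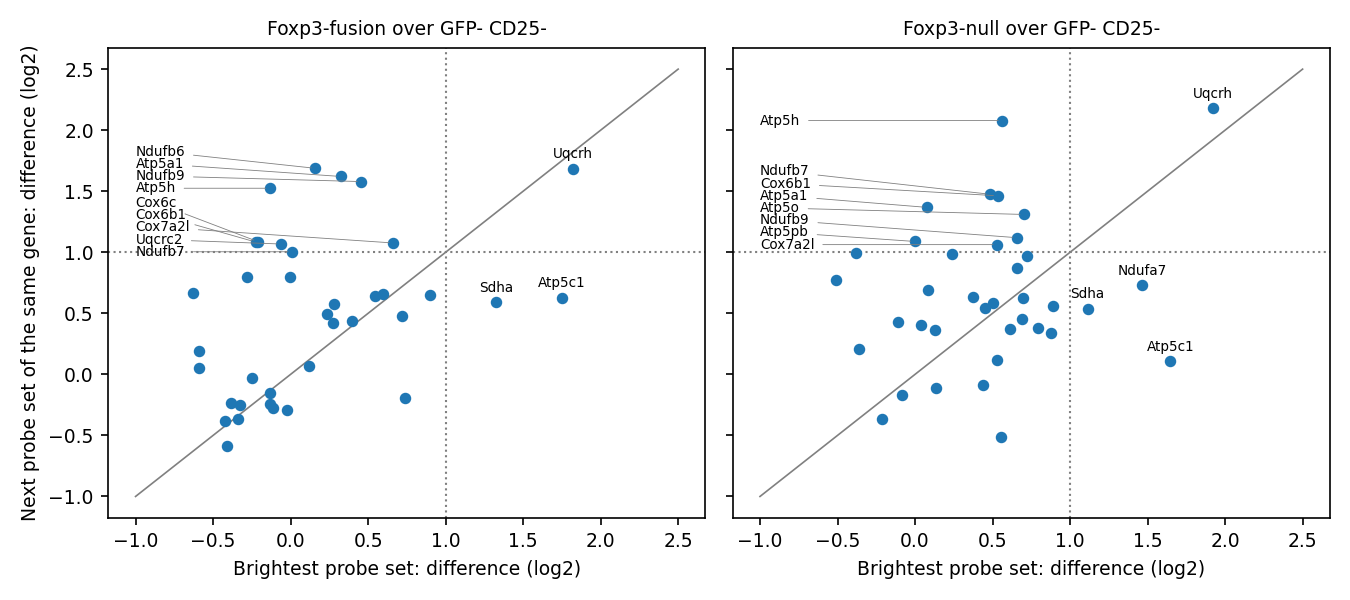
Difference in normalized log2 signal from GFP- CD25- cells on the next probe set against the brightest one, for the 37 members with both above the floor; the diagonal marks equal readings and dotted lines 2-fold. Uqcrh lies beyond 2-fold on both axes, whereas Atp5h reaches 1.52 (left) and 2.08 (right) on the next probe set and -0.13 and 0.56 on the brightest.

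Genes around the chain were read from lists of related genes. Over all genes the median difference from GFP- CD25- cells was -0.04 in Foxp3-fusion and 0.22 in Foxp3-null cells, with 10.5% and 10.6% of genes 2-fold higher and 5.81% and 7.66% lower. Of 40 listed assembly factors, 27 were measured, with a median of 0.06 in Foxp3-fusion and 0.22 in Foxp3-null over GFP- CD25- cells. There 2 (7.41%) were 2-fold higher and 0 lower in Foxp3-fusion cells and 3 (11.1%) and 0 in Foxp3-null cells, near or under the share of all genes. Cox17 and Cox19, which handle copper for complex IV, differed by 0.87 and 1.04 in Foxp3-fusion and 1.19 and 1.57 in Foxp3-null cells, and Uqcc2, a complex III factor, by 0.66 and 1.67. Mitochondrial ribosomal proteins, which make the subunits encoded in mitochondrial DNA, had medians of 0.06 over 55 and 0.35 over 54 of 76 genes, with 2 (3.64%) higher and 0 lower in Foxp3-fusion and 6 (11.1%) and 0 in Foxp3-null cells. As deposited, the medians in Foxp3-fusion cells were 0.29 for assembly factors and 0.31 for ribosomal proteins, against 0.18 over all genes, and those in Foxp3-null cells were close to 0, against -0.02. Ribosomal proteins 2-fold higher then numbered 9 (16.1%) in Foxp3-fusion and 0 in Foxp3-null cells, against 15.6% and 5.05% of all genes. Those 2-fold lower numbered 0 and 3 (5.56%), against 3.81% and 12.5%.

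Import and matrix chaperones had medians of 0.18 and 0.47 over 18 of 26 genes, with 4 higher and 1 lower in Foxp3-fusion and 3 and 0 in Foxp3-null cells. Hspd1, the matrix chaperonin, read 8.20, 8.77, 9.69 and 10.07, 3.66-fold higher in Foxp3-fusion and 2.80-fold in Foxp3-null cells. The tricarboxylic acid cycle, which feeds electrons to complexes I and II, had medians of 0.29 over 16 and 0.38 over 15 of 18 genes, with 4 higher and 0 lower and then 1 and 1. Suclg2, a succinyl-CoA ligase subunit, read 8.35, 8.85, 7.07 and 9.79 and was 6.56-fold apart between the GFP+ populations, Foxp3-fusion being higher. Carriers, porins and uncouplers had medians of 0.03 and 0.19 over 8 of 13 genes; Vdac2, an outer-membrane porin, differed by 1.05 in Foxp3-fusion and 0.86 in Foxp3-null cells and was the only one of them 2-fold higher in either. The deposited scale moved these medians to 0.44 and 0.13 for import and chaperones, 0.56 and 0.03 for the tricarboxylic acid cycle, and 0.24 and -0.05 for carriers.

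Genes of coenzyme Q synthesis and of other electron entry went in both directions. Medians were -0.14 and 0.11 over 11 of 18 genes, with 3 higher and 2 lower in Foxp3-fusion and 2 and 2 in Foxp3-null cells, and as deposited -0.07 and -0.15. Etfa and Etfb form the flavoprotein that brings electrons from fatty acid oxidation, and Etfdh hands them to coenzyme Q. Etfa read 6.23, 6.76, 6.34 and 8.36, high in Foxp3-fusion cells alone. Gpd2, the mitochondrial glycerol phosphate dehydrogenase, read 6.71, 5.88, 7.74 and, below the floor, 4.88, so its Foxp3-fusion signal was at least 7.10-fold below that of Foxp3-null cells. Chdh, choline dehydrogenase, read 8.80, 7.64, 4.39 and 6.58 and was lowest in Foxp3-null cells, under the floor.

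Regulators of mitochondrial gene expression showed no common direction. Medians were 0.09 over 16 and -0.26 over 17 of 21 genes, with 3 higher and 2 lower in Foxp3-fusion and 0 and 2 in Foxp3-null over GFP- CD25- cells. As deposited the medians were 0.15 and -0.66. Gabpa, an ETS factor of respiratory chain promoters, read 7.20, 7.52, 6.02 and 8.18, so it was lowest in Foxp3-null and highest in Foxp3-fusion cells, 4.45-fold apart. Tfam, which packs and transcribes mitochondrial DNA, read 6.86, 6.63, 7.78 and 7.92, with both GFP+ arrays above both GFP- arrays, as for Atp5b. Myc read 7.32, 7.62, 7.07 and 8.70, and Esrra, the orphan receptor of the TCAAGGTC site, read 7.56, 6.93, 7.02 and 6.03.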

How the data were processed

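The 4 arrays (45101 probe sets, 64 of them controls and left out) are analysed as deposited by the authors: 1 log2 value per probe set and array, with the log base inferred from the range. RNA preparation and amplification are per the labels' protocols. Background correction and normalization by the authors are not given in the sources used here. Because the deposited 90th percentiles differed by 0.63 (log2), values were quantile normalized over the 4 arrays. The floor was the highest array's 90th percentile over 70 probe sets of 40 listed silent tissue genes (4.91, or 4.86 as deposited), and differences with both arrays at the floor were not given. Where only 1 array was at the floor, the difference bounds the change from below. Symbols came from the platform annotation: 34945 probe sets had 1 symbol, 932 several and 9160 none. A call meant at least 2-fold between 2 arrays; no test was possible with 1 array per group. The members and lists were chosen with earlier results of these data known. The text names, per comparison, the 5 members with the largest differences each way, the 2 widest and 2 narrowest ranges per complex, tissue isoforms, genes whose probe sets disagree and list genes past 2-fold; other members named to complete a count were chosen after their values were seen. Calls were tested on simulated data. Python 3.11.15, pandas 2.3.3, NumPy 2.4.6 and matplotlib 3.10.9 were used. Alternatives were the deposited scale, centring, other floors, other probe sets and other fold thresholds.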

Additional observations from a re-analysis of the deposited data

How the results depend on the processing

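No paired analysis was possible because each group has 1 array, and no replicate could be left out. The values below differed in direction from the reported ones or moved by over 1.5 times; the cause was not tested. On the deposited scale the Foxp3-fusion over Foxp3-null median became 0.31, with complex I at 0.33, II at 0.46, III at 0.29, IV at 0.29, V at 0.41 and assembly factors at 0.18, and the Foxp3-fusion over GFP- CD25+ median became 0.30, with complex I at 0.21, V at 0.35 and assembly factors at 0.12. Members 2-fold higher then numbered 6 (Foxp3-fusion over Foxp3-null), 18 (Foxp3-fusion over GFP- CD25+), 5 (Foxp3-null over GFP- CD25-) and 2 (GFP- CD25+ over GFP- CD25-), and members 2-fold lower 1, 3 (Foxp3-fusion over GFP- CD25+), 4 (Foxp3-null over GFP- CD25+) and 1 (GFP- CD25+ over GFP- CD25-). Centring each array on its median above the floor gave -0.13 for complex IV in Foxp3-fusion over GFP- CD25+ cells and 7 members higher in GFP- CD25+ over GFP- CD25- cells. The median over a gene's probe sets gave, for Foxp3-fusion over GFP- CD25+ cells, 0.15 over members, 0.17 for complex V and -0.074 for Ndufa7, with 1 member lower. It also gave 0.16 for complex II in Foxp3-fusion over Foxp3-null cells, 0.34 for Cycs and -0.055 for Sdha in Foxp3-null over GFP- CD25- cells, 1 member higher in GFP- CD25+ over GFP- CD25- cells and, of Foxp3-null over GFP- CD25+ cells, 0 members lower. Leaving out probe sets whose names end in _x_at or _s_at, which can bind several transcripts, gave 0.15 over members and 0.17 for complex V in Foxp3-fusion over GFP- CD25+ cells, 0.28 for complex II in Foxp3-fusion over Foxp3-null cells, and 1 lower member in both Foxp3-null over GFP- CD25+ and GFP- CD25+ over GFP- CD25- cells. Taking the next probe set of the 37 members with a pair gave 0.22 in Foxp3-fusion over GFP- CD25+ cells, against -0.33 on the brightest. A floor 1 log2 unit higher left 1 member higher in Foxp3-fusion over Foxp3-null cells, and no floor gave 4 there and 14 over GFP- CD25+ cells. The share of all genes is not given for centring, other floors or other probe sets. The counts under those settings therefore cannot be read as results about the members. At a 1.5-fold threshold the higher members numbered 19, 34, 14, 16 and 17 (Foxp3-fusion, Foxp3-null and GFP- CD25+ over GFP- CD25-, then Foxp3-fusion and Foxp3-null over GFP- CD25+), against 20.8%, 24.2%, 14.6%, 21.9% and 21.6% of all genes, and the lower members 3 (Foxp3-fusion over GFP- CD25-), 21 (Foxp3-fusion over Foxp3-null), 2 (GFP- CD25+ over GFP- CD25-), 19 and 6 (Foxp3-fusion and Foxp3-null over GFP- CD25+), against 14.6%, 24.1%, 12.1%, 20.8% and 15.1%. At 3-fold the higher members numbered 5, 3 and 0 over GFP- CD25- in that order, 0 in Foxp3-fusion over Foxp3-null and 5 in Foxp3-fusion over GFP- CD25+ cells, against 3.94%, 2.92%, 1.31%, 3.57% and 4.66% of all genes, and the lower members 1 in Foxp3-fusion over Foxp3-null, 2 in Foxp3-fusion and 0 in Foxp3-null over GFP- CD25+ cells, against 2.06%, 2.10% and 2.65%. A floor without Mbp (4.12), chosen after seeing the data because Mbp read above the other silent genes, and the next probe set, also chosen so, were added; the former moved no median or count. Of 294 complex medians recomputed, 15 reversed and 1 moved, and of 42 medians over all members 4 reversed. Of 54 recomputed counts of higher members 19 moved, as did 16 of 54 of lower members. Of 1677 values of named members 82 were counted as moved and 2 as reversed, without the next probe set among the settings. That count of reversals leaves out changes of sign on the deposited scale. In Foxp3-fusion over Foxp3-null cells, for example, Sdhb went from -0.52 to 0.13, Cox6c from -0.45 to 0.15 and Ndufa12 from -0.20 to 0.41. With 1 array per population the spread between animals is unknown, and members near the floor give bounds only.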

Other observations

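Cytosolic ribosomal proteins, which make the nuclear-encoded subunits among all other proteins, had positive median differences in both GFP+ populations. Of 49 genes 44 were measured, and their median difference from GFP- CD25- cells was 0.72 (log2) in Foxp3-fusion and 0.54 in Foxp3-null cells, or 0.92 and 0.21 on the deposited scale. At least 2-fold higher were 13 genes in Foxp3-fusion cells, with 0 lower, and 8 in Foxp3-null cells, with 1 lower, against 10.5% and 5.81% and then 10.6% and 7.66% of all genes. As deposited 17 and 2 were higher and 0 and 1 lower, against 15.6% and 3.81% and then 5.05% and 12.5%. Rps3a1, of the small subunit, read 11.79 (GFP- CD25-), 11.82 (GFP- CD25+), 12.92 (Foxp3-null) and 13.97 (Foxp3-fusion). Rpl6, of the large subunit, read 10.59, 10.28, 12.47 and 12.30 in the same order. Rps25 took the opposite direction, with 9.50, 9.60, 7.89 and 8.60. The median of GFP- CD25+ over GFP- CD25- cells was 0.07, with 0 genes beyond 2-fold either way.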
